A study of Danio rerio with 48 samples.

Results

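The transcriptome of zebrafish gemin2 mutants was set against those of gemin4, gemin6 and gemin7 mutants. The members were the 12 RNA-seq libraries labelled as homozygous for a mutation in 1 of these 4 genes, out of 48 samples in the series, with 3 libraries for each mutant. For each gene, the gemin2 value was compared with the mean of the 3 other mutant means, so that mutants were compared with mutants and no wild-type library entered a test. All 12 libraries came from larvae of the TAB-5 strain background at 7 days post fertilization (dpf), labelled as whole fish embryos. All larvae had been exposed at 5 dpf to 10 µM copper sulfate for 2 h, which kills lateral line hair cells. A piece of caudal fin was removed for genotyping, and RNA was taken from the pooled bodies. The mutants carried the alleles gemin2 hg108 (a deletion), gemin4 hg109 (an insertion), gemin6 hg110 (a deletion) and gemin7 hg111 (a deletion).

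Several features limit what the comparison can carry. By the study's methods, the larvae of a mutant were the offspring of a single heterozygous pair, so the gemin2 mutation and whatever else differed between the gemin2 family and the other families cannot be told apart. Nothing in the labels says that the 3 libraries of a mutant were separate crosses, and p-values therefore measure the spread between libraries. With the 4 families as the unit, 1 family against 3, the smallest p an exact permutation test could give would be 0.25. No wild-type siblings of gemin2 mutants were analysed here. The single wild-type sibling libraries of the gemin4, gemin6 and gemin7 families are given as background levels only.

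Depth was even across the 12 libraries, with 32058757 to 45440249 expected counts each (median 38247096). Expression is given as CPM, counts scaled to a common library size, with the TMM correction of edgeR. Transcripts of the main larval tissues were abundant in every library, with 42 fast and slow muscle genes summing to 117794 to 127595 CPM in gemin2 mutants and 68794 to 125080 CPM in the other mutants, and 25 neuronal genes to 2133 to 2715 CPM and 2098 to 2789 CPM. On a principal component analysis, the first component held 31.8% of the variance and placed the 3 gemin2 libraries at -40.09, -40.38 and -41.06, while the 9 other libraries lay between 6.072 and 24.56.

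The SMN complex loads a ring of Sm proteins onto the small nuclear RNAs (snRNAs) of the spliceosome in the cytoplasm, from where the assembled particles (snRNPs) return to the nucleus. Gemin2 is the subunit that grips the open ring of Sm proteins before the snRNA is added, and it binds the SMN protein directly. Gemin6 and Gemin7 form a dimer with an Sm-like fold, and Gemin4 binds the helicase Gemin3, the product of ddx20. SMN itself is the protein whose shortage causes spinal muscular atrophy in humans.

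Of the 9 SMN complex genes, only the mutated gene itself was called. The gemin2 transcript (ENSDARG00000015638) had 2.94, 2.6 and 2.54 CPM in gemin2 mutants. It had 8.73, 8.43 and 11.5 CPM in gemin4 mutants, 9.72, 9.51 and 11.5 CPM in gemin6 mutants, and 10, 9.4 and 9.51 CPM in gemin7 mutants. All 3 gemin2 libraries lay below all 9 others and below the wild-type libraries (8.93 to 10.3 CPM), with a log2 fold change of -1.87 ± 0.14 (SE; adjusted p = 1.01e-06, edgeR quasi-likelihood test with Benjamini-Hochberg adjustment over all genes). The other 8 genes were not called. The helicase gene ddx20 was higher in every gemin2 library (9.94, 9.77 and 9.93 CPM) than in any other mutant library (6.93 to 9.6 CPM), yet its difference of 0.24 ± 0.12 did not pass (adjusted p = 0.217). The transcript of gemin7 was lowest in the gemin7 mutants (4.47, 5.07 and 3.86 CPM), and in gemin2 mutants (5.34, 6.8 and 8.72 CPM) it passed the test against that mutant alone (0.64, adjusted p = 0.0459). The transcripts of smn1, gemin4, gemin5, gemin6, gemin8 and strap had fold changes between -0.14 and 0.15. A mutated gene did not always have a lower transcript in its own mutant. By the same test, gemin4 was not called in gemin4 mutants against the mean of gemin6 and gemin7 mutants (-0.06, adjusted p = 0.89). Likewise not called were gemin6 in gemin6 mutants (-0.18, adjusted p = 0.681) and gemin7 in gemin7 mutants (-0.62, adjusted p = 0.085), each against the remaining pair without gemin2.

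**Figure D1:**
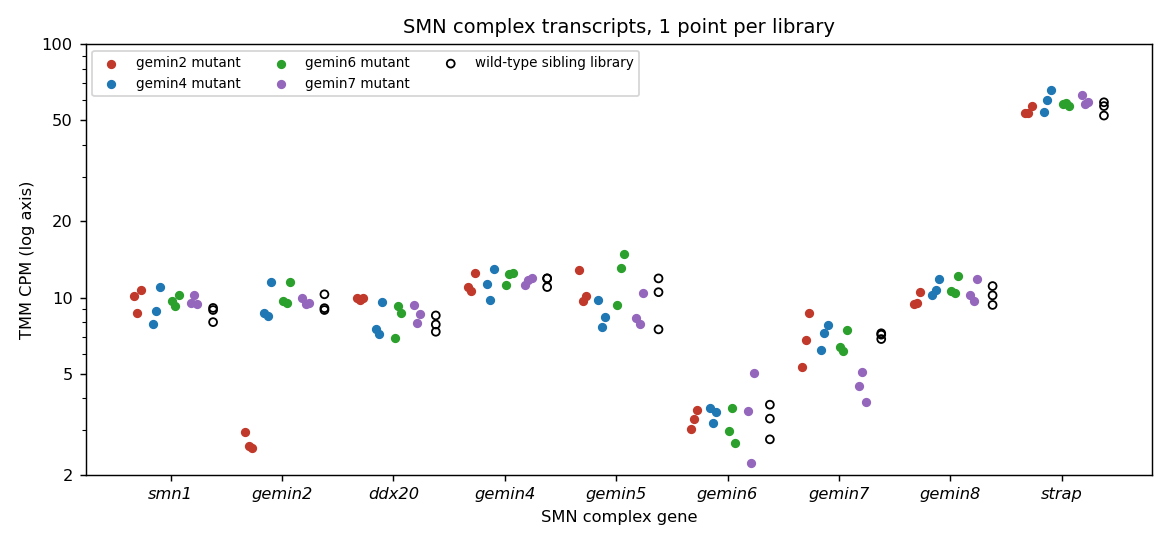
TMM CPM (log axis) of the 9 SMN complex genes, 1 point per library, coloured by mutant, with the 3 wild-type sibling libraries as open circles. The gemin2 transcript lies at 2.54 to 2.94 CPM in gemin2 mutants and at 8.43 to 11.5 CPM in the other mutants, and the groups of the other genes lie close together or overlap, with gemin7 lowest in gemin7 mutants.

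Across the transcriptome, more genes were called between gemin2 mutants and the other mutants than among those others. Of 23739 genes tested, 1483 were higher in gemin2 mutants (6.25%) and 1740 were lower (7.33%), together 3223 (13.6%) at an adjusted p below 0.05. Against each mutant alone, 823 genes were higher and 1203 lower than in gemin4 mutants (8.53% called), 1442 higher and 1793 lower than in gemin6 mutants (13.6%), and 868 higher and 1269 lower than in gemin7 mutants (9.0%). The same contrast among the other 3 mutants, each against the mean of the remaining pair, called 440 genes for gemin4 (1.85%), 459 for gemin6 (1.93%) and 308 for gemin7 (1.3%). These contrasts hold 3 libraries fewer than the first and share libraries with each other, and their counts were not tested against each other. With DESeq2 they called 427 higher and 310 lower genes for gemin4, 471 and 550 for gemin6, and 495 and 405 for gemin7, while gemin2 against the rest gave 1772 and 2058.

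Most differences were modest. The median log2 fold change was 0.73 among higher genes and -0.96 among lower genes, against 0.01 over all genes tested, and 507 higher and 827 lower genes passed 2-fold. Over 8-fold there were 83 higher and 153 lower genes, compared with 41 and 21 for gemin4, 16 and 10 for gemin6, and 17 and 17 for gemin7 in their own contrasts. In 1114 genes (4.69%) all 3 gemin2 libraries lay above all 9 others, and in 1392 (5.86%) they lay below. Genes called in the same direction against each of the 3 mutants numbered 327 higher (1.38%) and 642 lower (2.70%). Without gemin2 replicate 2 the counts were 923 higher and 1051 lower, of which 887 and 1015 were among those above.

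**Figure D2:**
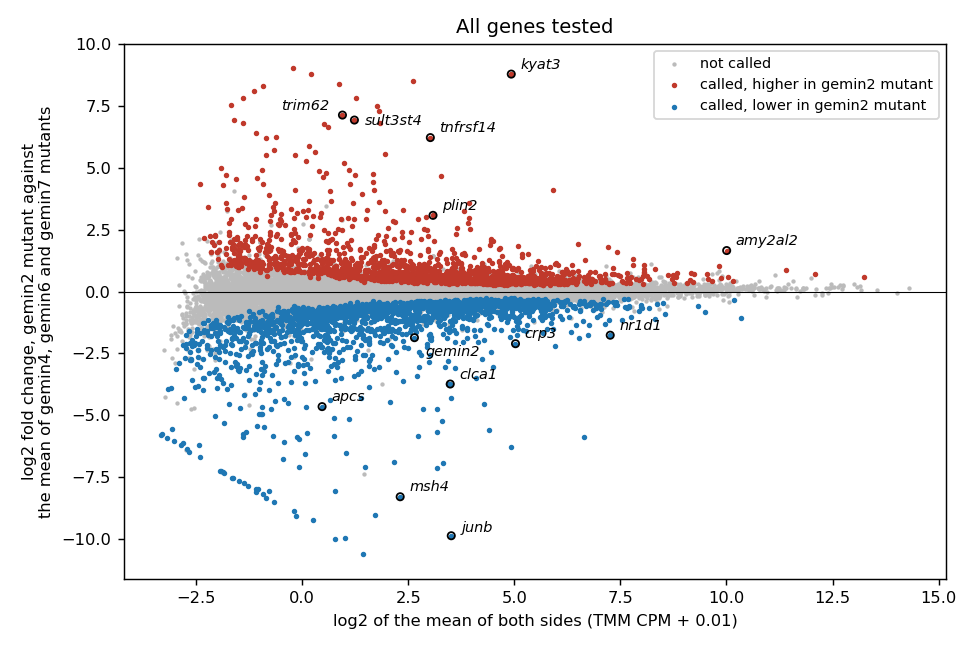
Log2 fold change of gemin2 mutants against the mean of the gemin4, gemin6 and gemin7 mutants (vertical axis) by mean expression (horizontal axis, log2 of TMM CPM + 0.01) for 23739 genes, with called genes in red (1483 higher) and blue (1740 lower). Named genes described in the text are circled, with kyat3 at 8.80 and junb at -9.88, and the lower genes on the slanted line at the left had no or hardly any counts in gemin2 mutants.

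The large rises and falls were named only where called against each other mutant, with no gemin2 library overlapping the 9 others. Their lack of overlap is therefore not separate support. Several of the genes with the largest rises were near 0 in the other mutants. The foremost was a copy of kyat3 (ENSDARG00000101791), which encodes a kynurenine aminotransferase of tryptophan breakdown. It had 48.2, 54 and 79.7 CPM in gemin2 mutants, against 0.133, 0.146 and 0.0619 CPM in gemin4, 0.188, 0.105 and 0.023 CPM in gemin6, and 0.327, 0.233 and 0.0693 CPM in gemin7 mutants. All gemin2 libraries were thus far above the 9 others and the wild-type libraries (0.0712 to 0.115 CPM), and the log2 fold change was 8.80 ± 0.25 (adjusted p = 1.1e-10). Over the 3 genes that carry this symbol, the summed level was 51.1 to 83.4 CPM in gemin2 mutants and 0.506 to 2.04 CPM in the others, so the summed level was higher too.

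Several of the other large rises were in genes of metabolism. The sulfotransferase genes sult3st4 and sult3st5, whose enzymes attach sulfate to small molecules, had 3.85 to 5.7 CPM and 4.63 to 5.58 CPM in gemin2 mutants against 0 to 0.107 CPM and 0.0691 to 0.523 CPM elsewhere (6.94 ± 0.36 and 3.97 ± 0.26). Perilipin 2 (plin2), which coats lipid droplets, had 12.8, 15.2 and 17.3 CPM in gemin2 mutants and 1.15 to 3.07 CPM in the other mutants, with a log2 fold change of 3.09 ± 0.19 (adjusted p = 1.86e-07). Wild-type libraries reached 6.04 CPM for plin2, still below the gemin2 libraries. The acyl-CoA dehydrogenase gene acadsb, of branched-chain amino acid breakdown, was called for 1 of its 2 copies (ENSDARG00000098174; 10.1 to 15.5 CPM against 0.774 to 5.51 CPM, 3.04 ± 0.28), while the sum of both copies overlapped, with 34 to 38.9 CPM against 36.9 to 44.4 CPM.

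Receptor, scaffold and ubiquitin ligase genes made up much of the rest. The TNF receptor family gene tnfrsf14 had 26.4, 16.6 and 5.16 CPM in gemin2 mutants and 0.0941 to 0.377 CPM in the other mutants (6.23 ± 0.39, adjusted p = 2.04e-07). Its gemin2 libraries differed widely from each other, and their lack of overlap with the other mutant libraries was a condition for naming the gene. A copy of trim62 (ENSDARG00000095536), for a RING-type ubiquitin ligase, had 3.47 to 3.88 CPM in gemin2 mutants, 0.427 to 0.525 CPM in gemin4 mutants and 0 to 0.0314 CPM in gemin6 and gemin7 mutants (7.14 ± 0.29 as fitted, but 22.8-fold as a ratio of mean CPM). The membrane-associated scaffold gene mpp4 (ENSDARG00000009386) had 2.68 to 2.94 CPM against 0 to 0.0754 CPM (6.79 ± 0.43). For trim62 and mpp4 the copies summed to overlapping levels, 7.63 to 8.7 CPM against 3.84 to 8.77 CPM for trim62 and 29.6 to 35.2 CPM against 33.8 to 48.2 CPM for mpp4. The F-box gene fbxo44.10 was also higher (5.96 to 6.31 CPM against 0.0776 to 0.465 CPM, 4.78 ± 0.26). Further rises were mucms1 (2.17 to 7.09 CPM against 0.0292 to 1.82 CPM, 4.70 ± 0.62 as fitted and 15.9-fold as a ratio of mean CPM) and pih1d2 (1.74 to 2.37 CPM against 0.175 to 0.346 CPM, 3.04 ± 0.21).

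The largest falls left some genes without signal in gemin2 mutants. A copy of junb (ENSDARG00000104773), a subunit of the AP-1 transcription factor, had 0, 0.0535 and 0 CPM in gemin2 mutants. It had 12, 8.81 and 6.01 CPM in gemin4, 24.1, 15.5 and 33.4 CPM in gemin6, and 43.6, 47 and 15 CPM in gemin7 mutants (adjusted p = 1.74e-06). With 2 counts in the 3 gemin2 libraries against 8111 in the 9 others, the ratio of the levels was 1292, with a 95% counting interval of 358 to 10669. The other copy (ENSDARG00000074378) had a mean of 14.5 CPM in gemin2 mutants and 27.8 CPM in the others and was not called (-0.92 ± 0.31, adjusted p = 0.0633), and the sum of both copies was 11.4 to 19.7 CPM against 27.9 to 88.4 CPM. The total over the copies was thus lower in gemin2 mutants with no overlap.

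The meiotic recombination gene msh4 showed the same near absence. It had 3 counts in all 3 gemin2 libraries and 3527 in the other 9, where its level was 3.99 to 16.7 CPM, a ratio of 372 (counting interval 127 to 1806, adjusted p = 5.46e-07). Pentraxin gene apcs, for serum amyloid P, had 0.0593 to 0.134 CPM in gemin2 mutants and 0.788 to 4.55 CPM in the others (-4.65 ± 0.53). Genes of secretion and lipid handling followed, with clca1, for a secreted regulator of chloride channels and mucus, at 1.23 to 1.95 CPM against 12.2 to 27.5 CPM (-3.74 ± 0.27) and hepatic lipase, lipc, at 0.326, 0.455 and 2.92 CPM against 4.63 to 27.6 CPM (-3.04 ± 0.49). The lectin gene itln3 was at 1.02 to 1.13 CPM against 3.02 to 11.5 CPM (-2.72 ± 0.35).

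Further falls followed. The prostaglandin reductase gene ptgr1.2 was at 2.11 to 2.76 CPM against 13 to 30.9 CPM (-3.11 ± 0.21), and the DEAD-box helicase gene ddx43 at 0.712 to 0.761 CPM against 4.5 to 9.06 CPM (-3.05 ± 0.20). For coq8a (ENSDARG00000032426), a gene of ubiquinone synthesis, the called copy was at 0.642 to 1.04 CPM against 3.83 to 5.45 CPM (-2.57 ± 0.19), but both copies together had 222 to 268 CPM against 163 to 231 CPM. For 2 genes the gemin6 mutants lay between gemin2 and the rest. The Hsp90 co-chaperone gene ahsa1 (ENSDARG00000028664) had 0.294 to 0.386 CPM in gemin2, 0.783 to 0.92 CPM in gemin6 and 5.67 to 7.99 CPM in gemin4 and gemin7 mutants, and the protease inhibitor gene serpinb1 (ENSDARG00000070396) had 0.237 to 0.482 CPM, 0.784 to 1.11 CPM and 3.39 to 4.81 CPM. Against gemin6 mutants alone the differences were -1.35 (adjusted p = 0.00277) and -1.22 (adjusted p = 0.0111). A call against each mutant was a condition for naming these genes, so these calls add no support. The copies of ahsa1 summed to overlapping levels (15 to 19 CPM against 13 to 36.6 CPM). Those of serpinb1 summed to 116 to 147 CPM against 77.7 to 107 CPM, the opposite direction to the called copy, with no overlap.

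Genes named after a clone or left unnamed were frequent among the genes open to selection as large changes, 41.4% of them compared with 23.6% of all genes tested. Of 269 higher and 451 lower genes that met the criteria, 100 and 198 had such names. The extremes were si:ch211-261n11.8, with 251 counts in gemin2 mutants and 1 count in the other 9 libraries (ratio 793, counting interval 142 to 31331), and ENSDARG00000106574, at a mean of 12.2 ± 1.59 CPM (SD, n = 3) against 0 to 0.0875 CPM. In the other direction, si:dkey-189n19.3 and zgc:158862 had 0 counts in gemin2 mutants and 3.32 to 10.4 CPM and 2.56 to 4.52 CPM in the others, at least 204-fold and at least 128-fold lower when 3 counts over the 3 libraries are taken as the floor. In all, 22 lower genes had 3 or fewer counts in gemin2 mutants with 1 CPM or more in the others, and 8 higher genes had 9 or fewer counts in the 9 other libraries with 1 CPM or more in gemin2 mutants.

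In the lists of snRNP assembly and splicing, 0 to 13% of genes were called, beside 13.6% of all genes, apart from 3 of 15 snRNA transcription factors (20%) and 3 of 5 genes of U6 methylation and SAM synthesis. By edgeR, 0 of 8 Sm protein genes and 0 of 12 minor spliceosome genes were called, with median log2 fold changes of 0.09 and 0.12 beside 0.01 for all genes. At an unadjusted p below 0.05 there were 0 and 1, beside 6358 of all 23739 genes, and DESeq2 also called 0 in each. The Sm gene with the smallest p was snrpg (14.9 to 15.8 CPM against 7.43 to 18.3 CPM, adjusted p = 0.359). Among 12 genes of Sm protein methylation, cap and transport, only riok1 was called. It encodes a kinase that brings substrates to the arginine methyltransferase PRMT5, and it had 38.6, 36.1 and 38.5 CPM in gemin2 mutants against 17.8 to 30.2 CPM in the others, with no overlap (0.69 ± 0.12, adjusted p = 0.00222). Of 15 Integrator genes, which cut the ends of snRNA precursors, only ints4 was called (28.8 to 36.5 CPM against 20.1 to 27.2 CPM, 0.54 ± 0.10).

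Transcription factors of snRNA genes included 3 higher and 0 lower of 15. The little elongation complex gene ice1 had 37.9, 38 and 38 CPM in gemin2 mutants against 20.9 to 30.4 CPM (0.55 ± 0.09, adjusted p = 0.00153), the snRNA-activating complex gene snapc4 had 25.6 to 29.7 CPM against 19.4 to 24.7 CPM (0.30 ± 0.09, adjusted p = 0.0482), and brf2, needed to transcribe U6, had 4.75 to 5.94 CPM against 2.44 to 5.76 CPM (0.57 ± 0.14). All 3 were lower still in the wild-type libraries, at 17.2 to 21.6, 13.2 to 15.2 and 1.04 to 1.85 CPM. Of the 4 mutant means the gemin2 mean was the furthest from these single libraries of other families, which was not tested. Against gemin4 mutants alone none of the 3 was called by edgeR (adjusted p = 0.059 for ice1, 0.215 for snapc4 and 0.573 for brf2). Against gemin7 mutants alone ice1 was called (adjusted p = 0.0029), but snapc4 (0.224) and brf2 (0.0873) were not. All 3 were called against gemin6 mutants. Without gemin2 replicate 2, or without the gemin6 mutants, 1 gene of this list was called.

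Genes of the particle proteins were called in both directions. In the lists of this paragraph, 0 genes were called in the same direction against each of the 3 mutants. Over all genes these shares were 1.38% higher and 2.70% lower. Several genes passed against 1 mutant only, such as prpf3, ptbp1, clk2 and hnrnpa1a (gemin6), srsf2b (gemin4) and sf3b5 (gemin7). Of 10 LSm genes, lsm10, a subunit of the U7 snRNP that trims histone mRNA, was called (1.52 to 2.17 CPM against 0.878 to 1.47 CPM, 0.78 ± 0.19), and it was also the 1 called gene of 10 in histone mRNA processing. Of 23 genes of the U1 and U2 snRNPs, sf3a2 (27.2 to 29.7 CPM against 17.5 to 26.2 CPM, 0.47 ± 0.10) and snrpa1 (0.33 ± 0.10) were higher and sf3b5 lower (-0.56 ± 0.15). Of 19 genes of the U5 and tri-snRNP, prpf31 (0.47 ± 0.10) and prpf3 (0.33 ± 0.10) were higher. Among 48 SR and hnRNP regulators of splicing, srsf6 (ENSDARG00000016783; 127 to 134 CPM against 73.3 to 110 CPM, 0.48 ± 0.09), ptbp1 (ENSDARG00000019362; 0.36 ± 0.10) and clk2 (ENSDARG00000059870; 0.36 ± 0.11) were higher and srsf2b, hnrnpa1a and srsf9 were lower (-0.55 to -0.38). Summed over copies, srsf6 did not overlap (187 to 196 CPM against 121 to 162 CPM). The sums for ptbp1 were 130 to 131 CPM against 90.9 to 131 CPM. Those for clk2 overlapped (105 to 128 CPM against 106 to 133 CPM). Of 14 genes of nonsense-mediated decay, which destroys transcripts with premature stop codons, only upf3a was called (33.5 to 37.4 CPM against 39.1 to 56.1 CPM, -0.34 ± 0.09). Leaving out single libraries gave 0 to 6 calls in either direction in these lists, and without gemin2 replicate 1 there were 0 in the LSm, histone mRNA and nonsense-mediated decay lists. The calls of snrpa1 and clk2 were each lost under 14 of 22 alternatives and that of prpf3 under 13. The prpf31 call was lost only in the test against a fold change of 1.5.

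Transcripts of mettl16, for the U6 methyltransferase, and of mat2a were called in opposite directions against the mean of the other mutants. METTL16 methylates U6 snRNA and, in human cells, a hairpin in the mRNA of MAT2A, the enzyme that makes the methyl donor S-adenosylmethionine. The mettl16 transcript had 14.6, 14.3 and 12.7 CPM in gemin2 mutants, against 11.3, 11.6 and 11.8 CPM in gemin4, 9.91, 9.39 and 10.1 CPM in gemin6, and 9.9, 9.08 and 11.2 CPM in gemin7 mutants. It was higher by 0.40 ± 0.09 (adjusted p = 0.0106), and the wild-type libraries had 5.71 to 6.35 CPM. One copy of mat2a (ENSDARG00000037121) had 39.2, 39.7 and 25.7 CPM in gemin2 mutants and 62.6 to 84.7 CPM in the others (-1.02 ± 0.14, adjusted p = 0.000211), and the other (ENSDARG00000040334) had 139, 125 and 91.9 CPM against 142 to 214 CPM (-0.50 ± 0.15, adjusted p = 0.0414). No gemin2 library overlapped the others for these 3 genes. A further gene of the list, mat2al, was fitted higher but not called (16.8 to 18.4 CPM against 10.4 to 17.9 CPM, 0.32 ± 0.14, adjusted p = 0.162). Against single mutants by edgeR, mettl16 was called against gemin6 and gemin7 but not gemin4 mutants (adjusted p = 0.219). The copy ENSDARG00000037121 of mat2a was called against each mutant. The copy ENSDARG00000040334 was called against none (adjusted p = 0.0503 for gemin4, 0.141 for gemin6 and 0.138 for gemin7). It lost its call against the mean under 10 of 22 alternatives. The mettl16 call was lost without gemin2 replicate 1 or 2, and without replicate 2 there was 1 lower call in place of 2.

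**Figure D3:**
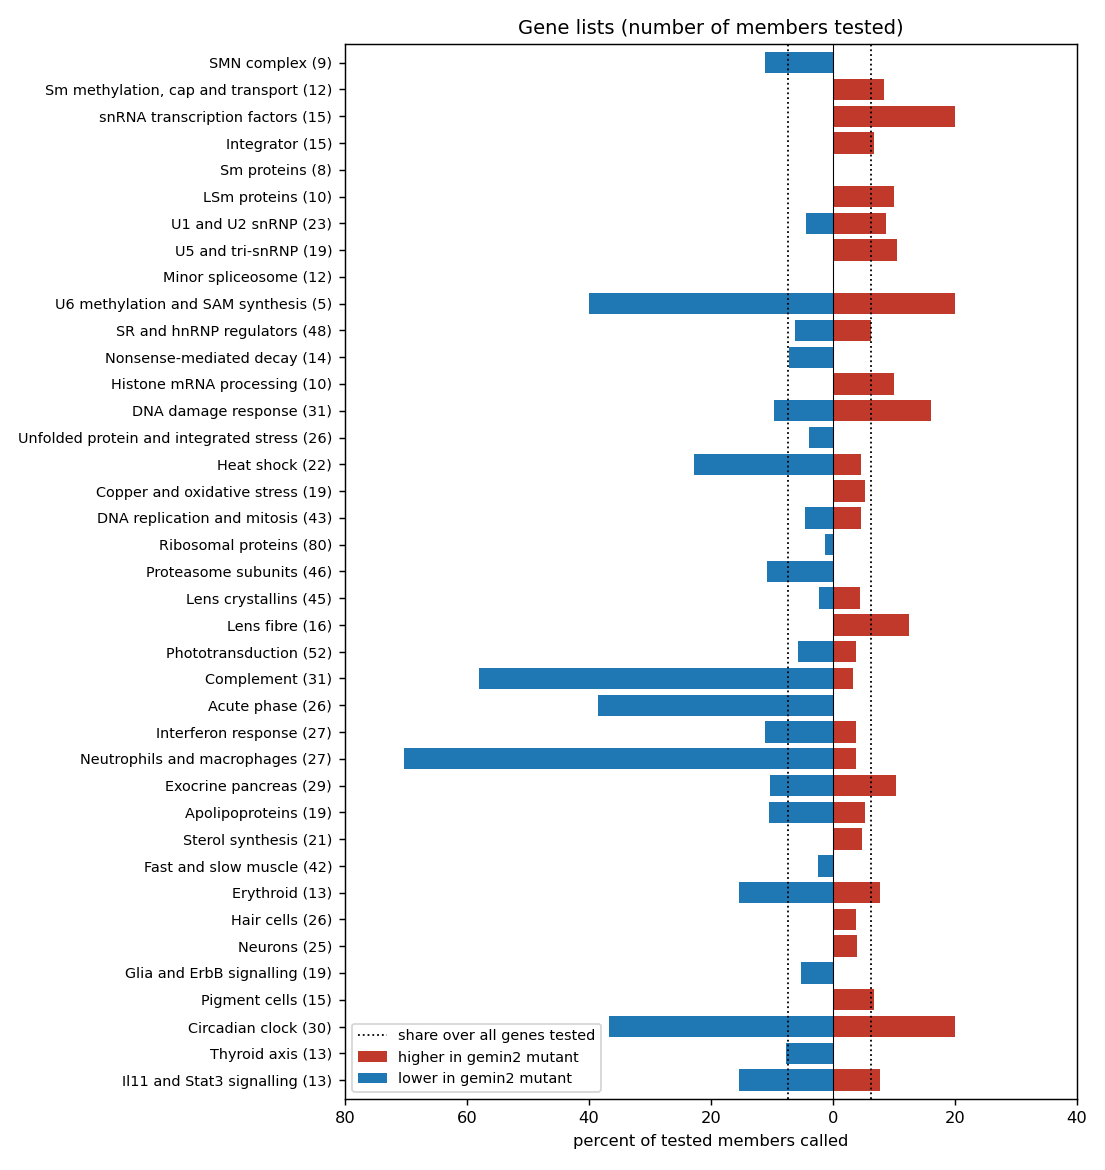
Percent of the tested members of each of 39 gene lists called higher (red, right) or lower (blue, left) in gemin2 mutants, with the number tested in brackets and dotted lines at the shares over all genes (6.25% and 7.33%). The bars furthest from the dotted lines are the lower shares of neutrophils and macrophages (19 of 27), complement (18 of 31), U6 methylation and S-adenosylmethionine (SAM) synthesis (2 of 5), acute phase (10 of 26) and the circadian clock (11 of 30).

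Transcripts of innate immune cells were lower in gemin2 mutants. Of 27 genes that mark neutrophils and macrophages, the phagocytes of the larva, 19 were lower and 1 was higher (74.1% called, beside 13.6% of all genes). Their median log2 fold change was -0.83. Their summed level was 181 to 215 CPM in gemin2 mutants, 259 to 382 CPM in the other mutants and 273 to 397 CPM in the wild-type libraries. In 13 of these genes every gemin2 library lay below every other mutant library, compared with 5.86% of all genes. In whole larvae, fewer cells of a type and less RNA per cell cannot be told apart. In the contrasts among the other mutants the same list held 0 calls for gemin4, 2 for gemin6 (1 higher and 1 lower) and 0 for gemin7 by edgeR. By DESeq2 it held 1, 2 and 0. At an unadjusted p below 0.05 it held 7, 6 and 4 of 27, beside 2986, 4040 and 3703 of all 23739 genes. Without gemin2 replicate 2, 11 genes were lower.

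The lower genes described here were of myeloid cells or leukocytes in general, or of macrophages. Lysozyme, lyz, an antibacterial enzyme of myeloid cells, had 9.4, 11.7 and 9.17 CPM in gemin2 mutants, against 14.9, 17.3 and 20.4 CPM in gemin4, 21.2, 25.1 and 26.1 CPM in gemin6, and 23.5, 25.9 and 25.3 CPM in gemin7 mutants (-1.12 ± 0.12, adjusted p = 5.13e-05). The myeloid transcription factor gene spi1a had 4.84, 4.49 and 4.4 CPM against 7.29 to 10.4 CPM (-0.92 ± 0.12), and the leukocyte actin-bundling gene lcp1 had 10.5 to 11.6 CPM against 15.9 to 23.6 CPM (-0.83 ± 0.10). Gemin4 mutants were the nearest of the others for lyz, yet gave no overlap. Of macrophage genes, the pore-forming mpeg1 (ENSDARG00000055290) had 8.16 to 10.7 CPM against 13.5 to 18.9 CPM (-0.76 ± 0.12), the collagenase gene mmp13a 1.74 to 3.52 CPM against 4.89 to 12.9 CPM (-1.72 ± 0.27), and mfap4 was lower for 3 of its copies (-2.89 to -0.99). The NADPH oxidase genes cybb (-0.82 ± 0.15), ncf1 (-0.63 ± 0.14) and cyba (-0.41 ± 0.12), which make the oxidative burst, were lower together. The exception was csf1ra, a receptor gene that pigment cells of zebrafish also use, at 25.4 to 31.5 CPM against 14.7 to 26.7 CPM (0.42 ± 0.12). Its paralog csf1rb was lower (-0.90 ± 0.17).

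Complement genes, which the liver makes for the plasma, were lower as a group as well. Of 31 complement genes, 18 were lower and 1 higher (61.3% called, beside 13.6% of all genes), with a median of -0.65. The sum was 888 to 1135 CPM in gemin2 mutants against 1350 to 2101 CPM in the others and 1506 to 2108 CPM in wild type. Without gemin2 replicate 1, 13 genes were lower. The pore-forming component c9 had 86.1, 92.4 and 97.3 CPM in gemin2 mutants against 182, 196 and 269 CPM in gemin4, 238, 235 and 147 CPM in gemin6, and 227, 171 and 186 CPM in gemin7 mutants (-1.16 ± 0.17, adjusted p = 0.000511). The central component c3a.1 had 164, 178 and 271 CPM against 320 to 607 CPM (-1.09 ± 0.19), and c5 had 37.2 to 49.9 CPM against 58.8 to 90.4 CPM (-0.72 ± 0.12). These groups did not overlap. Factor B genes cfb (-0.97 ± 0.15) and cfbl (-1.63 ± 0.21), the lectin pathway protease masp2 (-0.94 ± 0.13) and c4b (-1.59 ± 0.31) covered the activating steps. The single higher gene was cfp, for properdin, which stabilises the alternative pathway convertase and which leukocytes make in mammals, with 34.1, 48.5 and 44.8 CPM against 17.1 to 29.5 CPM (0.86 ± 0.12, adjusted p = 0.000361).

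Of 26 acute phase genes, 10 were lower and 0 higher (38.5% called, beside 13.6% of all genes). C-reactive protein genes crp3 and crp5 had 8.01 to 14.6 CPM and 3.54 to 4.68 CPM in gemin2 mutants, below every other mutant library (15.9 to 93.2 CPM and 5.66 to 47 CPM), with fold changes of -2.11 ± 0.22 and -2.03 ± 0.23. These genes also differed among the other mutants, with crp3 at 15.9, 22.8 and 29.5 CPM in gemin4, 79, 80.2 and 93.2 CPM in gemin6 and 53, 45.5 and 69 CPM in gemin7 mutants, and the list held 1 higher and 6 lower calls for gemin4 and 5 higher and 1 lower for gemin6 in their own contrasts. Ceruloplasmin, cp, the copper-carrying ferroxidase of plasma, was steadier among the others, with 53, 39.1 and 24.2 CPM in gemin2 mutants and 95.9 to 168 CPM in the rest (-1.65 ± 0.20, adjusted p = 9.11e-05). Transferrin, tfa (-0.58 ± 0.15), prothrombin, f2 (-0.57 ± 0.12), and the fibrinogen chains fgb (-0.50 ± 0.13) and fgg (-0.44 ± 0.13) were lower by less. Without gemin2 replicate 1, 6 genes of the list were lower. Apolipoprotein transcripts, many of them also made by the liver, held 1 higher and 2 lower of 19 (15.8% called, near the share over all genes). Their sums were 10429 to 11333 CPM against 9736 to 12725 CPM. The lower genes were apoa4a (2.07 to 4 CPM against 7.56 to 22.6 CPM, -1.94 ± 0.24) and apobb.2.

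Interferon response genes held 1 higher and 3 lower of 27 (14.8% called, near the 13.6% of all genes). Their median log2 fold change was -0.57, beside 0.01 for all genes, and 22 of the 27 were fitted below 0. In 5 genes every gemin2 library lay below every other mutant library and in 1 above (5.86% and 4.69% of all genes). Their summed levels overlapped, with 308 to 351 CPM in gemin2 mutants and 262 to 446 CPM in the others. The higher gene was socs1, an inhibitor of cytokine receptor signalling, with 32.5, 34.6 and 36.1 CPM in gemin2 mutants and 10.6 to 21.3 CPM in the others (1.19 ± 0.15, adjusted p = 0.000147). The antiviral effector genes mxc (-1.92 ± 0.39) and pkz (-1.65 ± 0.40) were lower, as was the proteasome gene psmb13a (0.166 to 0.187 CPM against 0.201 to 0.558 CPM, -1.18 ± 0.33). Of 13 genes of Il11 and Stat3 signalling (23.1% called), junb and the receptor subunit gene il6st (59.5 to 67 CPM against 68.4 to 108 CPM, -0.44 ± 0.12) were lower and 1 copy of myc (ENSDARG00000007241) was higher (0.38 ± 0.11). The copies of myc summed to overlapping levels (77.7 to 85.4 CPM against 63.4 to 84.8 CPM).

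**Figure D4:**
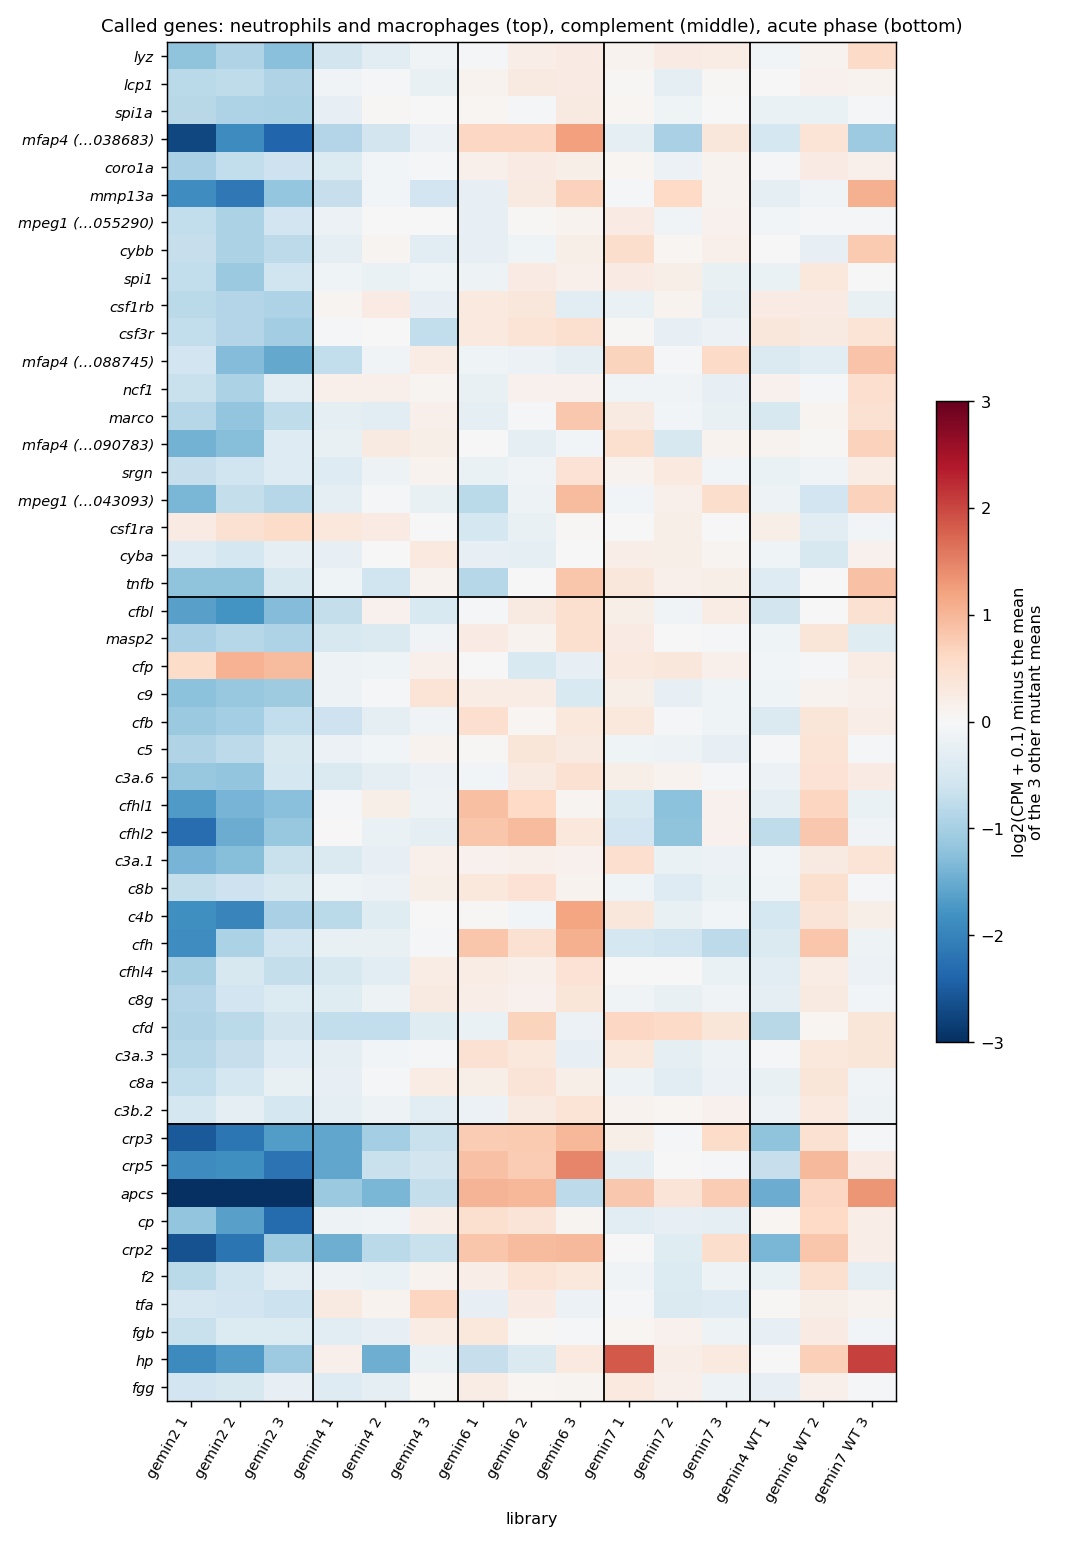
Called genes of the neutrophil and macrophage list (top), the complement list (middle) and the acute phase list (bottom) in the 12 mutant libraries and 3 wild-type libraries, as log2(CPM + 0.1) minus the mean of the 3 other mutant means (colour, capped at 3 in either direction). The 3 gemin2 columns at the left are blue for all genes shown but csf1ra and cfp, and the acute phase rows also separate gemin4 (blue) from gemin6 (red).

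Transcripts of the circadian clock were called in both directions. The vertebrate clock is a loop in which Clock and Bmal proteins switch on the period, cryptochrome, nr1d and other E-box genes, whose products then switch the loop off, while Ror proteins oppose Nr1d proteins. Of 30 clock genes 11 were lower, 6 higher and 13 not called in gemin2 mutants (56.7% called, beside 13.6% of all genes). In the contrasts among the other mutants the same list held 0 calls for gemin4, 1 for gemin6 and 0 for gemin7 by edgeR and 0, 3 and 8 by DESeq2. At an unadjusted p below 0.05 it held 5, 17 and 17 of 30, beside 2986, 4040 and 3703 of all 23739 genes. For gemin6 and gemin7 the share of the list was thus well above that of all genes, so clock genes also differed among the other mutants.

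Repressors and other clock outputs made up the lower genes. The gene nr1d1 had 90.8, 72.8 and 32.9 CPM in gemin2 mutants, 317, 302 and 160 CPM in gemin4, 471, 254 and 281 CPM in gemin6, and 142, 90 and 148 CPM in gemin7 mutants (-1.76 ± 0.33, adjusted p = 0.00258). The gemin7 library at 90 CPM fell within the range of the gemin2 libraries, and against gemin7 mutants alone nr1d1 was not called (-0.95, adjusted p = 0.132). Its paralog nr1d2 had 144 to 240 CPM against 258 to 391 CPM with no overlap (-0.64 ± 0.14). The cryptochrome gene cry2 had 44.6, 35.6 and 22.6 CPM against 58.4 to 130 CPM, also with no overlap (-1.26 ± 0.23, adjusted p = 0.00224). Both copies of per1 were lower (-1.34 ± 0.35 for ENSDARG00000012499 and -1.78 ± 0.48 for ENSDARG00000056885), but gemin7 replicate 2 lay among the gemin2 libraries for each, at 57.8 and 10.5 CPM. The E-box targets ciarta, ciartb, dbpa, dbpb, bhlhe40 and bhlhe41 were lower by 0.53 to 1.76.

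The 6 higher genes were Ror genes, clock, a cryptochrome and PAR bZIP genes. The Ror genes rorca (88.5, 91.3 and 109 CPM against 40 to 70.6 CPM, 0.92 ± 0.13, adjusted p = 0.000304) and rorcb (72, 107 and 236 CPM against 11.4 to 83.8 CPM, 1.93 ± 0.36) were higher, the latter with overlap at 1 gemin7 library. A copy of clock (ENSDARG00000011703) had 15, 16.2 and 21.7 CPM against 5.64 to 11.9 CPM with no overlap (0.94 ± 0.15). The copies of clock summed to overlapping levels (75.1 to 87.6 CPM against 56 to 78.2 CPM). The other 3 were cry4 (0.76 ± 0.20) and the PAR bZIP genes hlf (0.63 ± 0.14) and hlfa (0.69 ± 0.20). Cryptochrome genes were thus called in both directions, cry2 lower and cry4 higher. The same held for PAR bZIP genes, with dbpa and dbpb lower and hlf and hlfa higher. Against gemin7 mutants alone, 4 clock genes were higher and 3 lower, compared with 2 and 11 against gemin4 and 5 and 11 against gemin6 mutants. The gemin2 libraries also differed from each other here, with replicate 3 furthest from the other mutants for nr1d1, cry2, per1 and rorcb, and without gemin2 replicate 3 there were 8 lower genes. Without gemin2 replicate 2 there were 3 higher genes.

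**Figure D5:**
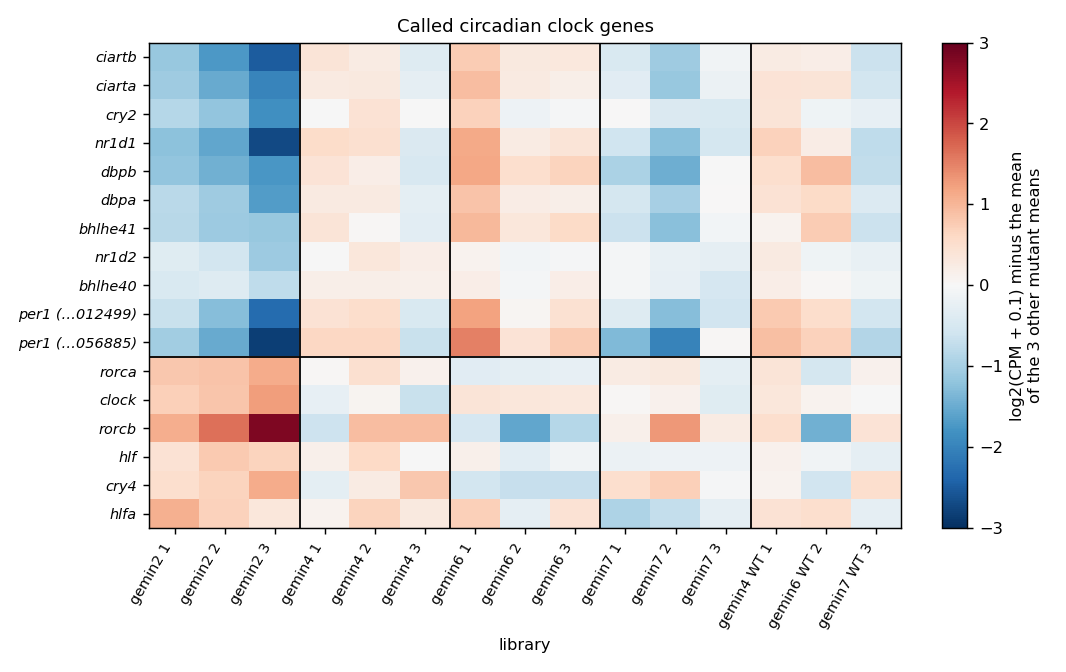
Called circadian clock genes (11 lower, then 6 higher) in the 12 mutant libraries and 3 wild-type libraries, as log2(CPM + 0.1) minus the mean of the 3 other mutant means (colour, capped at 3 in either direction). The lower genes are mostly bluest in gemin2 replicate 3, and gemin7 replicate 2 has a paler version of the same pattern in most rows.

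Stress and growth lists showed smaller shifts. Their called shares ran from 1.25% (ribosomal proteins) to 27.3% (heat shock), beside 13.6% of all genes. Of 22 heat shock genes 5 were lower and 1 higher, led by hsp90aa1.1 (41.8, 39.2 and 62.9 CPM against 78.1 to 263 CPM, -1.37 ± 0.31, adjusted p = 0.00832) and hspb1 (6.91 to 9.7 CPM against 12 to 24 CPM, -0.89 ± 0.18). The mitochondrial chaperones hspd1 (-0.59 ± 0.17) and hspe1 (-0.38 ± 0.11) were lower too. The higher gene was a copy of hspa8 (ENSDARG00000037403), whose copies summed to overlapping levels (8166 to 10957 CPM against 7320 to 9384 CPM). The whole list also summed to overlapping levels, 14092 to 16946 CPM in gemin2 mutants and 13478 to 16648 CPM in the others. Without gemin2 replicate 2 there was 1 lower gene. Of 26 genes of the unfolded protein and integrated stress responses, only xbp1 was called (87.6 to 117 CPM against 136 to 176 CPM, -0.52 ± 0.12), and of 19 genes of copper handling and oxidative stress only the copper pump gene atp7a (32.2 to 32.9 CPM against 21.3 to 26.8 CPM, 0.48 ± 0.09).

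In the DNA damage response, 5 of 31 genes were higher and 3 lower. The kinase inhibitor gene cdkn1a had 4.36, 7.52 and 5.28 CPM in gemin2 mutants against 6.39 to 29.8 CPM, with gemin6 mutants highest (-1.14 ± 0.30), and tigarb (-0.92 ± 0.15) and mdm4 (-0.34 ± 0.09) were lower as well. The higher genes were mdm2 (53.1 to 54.1 CPM against 35.6 to 52.3 CPM, 0.29 ± 0.08), sesn3 (0.45 ± 0.11), sesn1 (0.54 ± 0.16), gtse1 (0.50 ± 0.16) and a copy of gadd45a (ENSDARG00000104571; 0.45 ± 0.13). The copies of gadd45a summed to overlapping levels (53.9 to 64.4 CPM against 37.9 to 57.4 CPM). Without gemin2 replicate 2, or without the gemin6 mutants, 0 genes were higher. Of 46 proteasome genes 5 were lower, with psmb3 at 37.4 to 49.3 CPM against 52.1 to 73.2 CPM (-0.52 ± 0.11), and leaving out single libraries gave 0 (without gemin2 replicate 2) to 17.

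Among 43 genes of DNA replication and mitosis, 2 were higher and 2 lower. The copies of rrm2, the small subunit of ribonucleotide reductase, moved in opposite directions. ENSDARG00000020711 had 1.36, 0.99 and 2.07 CPM in gemin2 mutants and 1.22, 3.89 and 1.68 CPM in gemin6 mutants against 7.21 to 17.6 CPM in gemin4 and gemin7 mutants, while ENSDARG00000078069 had 14.8, 18.3 and 17 CPM and 13.7, 18.3 and 9 CPM against 0.836 to 6.37 CPM. Gemin2 and gemin6 mutants were thus close for this pair, and the copies summed to a mean of 18.2 CPM in gemin2 and 16.2 CPM in the other mutants. The helicase gene mcm7 was lower (10.1 to 13 CPM against 15.5 to 31.8 CPM, -0.96 ± 0.20). Of 80 ribosomal protein genes, only rps11l was called (-0.73 ± 0.19). It was also the only 1 of the 80 fitted below 0, and their median log2 fold change was 0.13.

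Markers of other tissues were called in both directions or rarely. Called shares ran from 2.38% (muscle) to 23.1% (erythroid), beside 13.6% of all genes. Of 29 exocrine pancreas genes 3 were higher and 3 lower, and amylase gene amy2al2 had 1403, 1629 and 1623 CPM in gemin2 mutants against 118 to 745 CPM (1.66 ± 0.31, adjusted p = 0.0029) while amy2al1 had 0.348 to 0.642 CPM against 1.07 to 2.11 CPM (-1.65 ± 0.31). The carboxypeptidase gene cpa1 (ENSDARG00000030915) was higher (0.76 ± 0.19), and elastase gene ela2l was lower (-1.08 ± 0.27). The copies of cpa1 summed to overlapping levels (2743 to 3412 CPM against 2001 to 4303 CPM). Of 52 phototransduction genes, the calcium sensor gene guca1a (ENSDARG00000101567; 5.51 to 7.17 CPM against 0.92 to 3.04 CPM, 2.05 ± 0.26) and a minor copy of rho (ENSDARG00000070666; 1.15 ± 0.19) were higher and rcvrnb, nr2e3 and gnb1a lower (-1.46 to -0.40). The copies of guca1a summed to 8.22 to 10.6 CPM against 2.4 to 11.6 CPM. Those of rho summed to 448 to 523 CPM against 136 to 603 CPM, so both sums overlapped. Of 45 lens crystallin genes 2 were higher and 1 lower, and of 16 lens fibre genes bfsp1 (0.67 ± 0.13) and tdrd7a (1.33 ± 0.21) were higher.

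Of 42 muscle genes only 1 copy of acta1 was called (ENSDARG00000036371; 129, 131 and 165 CPM against 249 to 323 CPM, -1.02 ± 0.12, adjusted p = 7.33e-05), and of 26 hair cell genes only 1 copy of myo7a (ENSDARG00000044632; a mean of 11.7 ± 1.15 CPM (SD, n = 3) against 6.43 to 9.74 CPM, 0.57 ± 0.12). The copies of acta1 summed to 650 to 775 CPM against 535 to 1192 CPM. Those of myo7a summed to 21.3 to 29.2 CPM against 20.2 to 27.4 CPM, so both sums overlapped. Erythroid genes held 1 higher and 2 lower of 13, with the haem synthesis gene alas2 at 5.51 to 7.8 CPM against 10.3 to 23.7 CPM (-0.95 ± 0.17). The last lists each held 1 call, namely chat among 25 neuronal genes (0.31 ± 0.09), erbb3b among 19 genes of glia and ErbB signalling (16.9 to 19.4 CPM against 20.5 to 23.2 CPM, -0.27 ± 0.08, lost under 16 of 22 alternatives), pmela among 15 pigment cell genes (0.55 ± 0.16), insig1 among 21 genes of sterol synthesis (0.85 ± 0.18) and tpo among 13 of the thyroid axis (-1.09 ± 0.25). Leaving out single libraries gave 0 to 6 calls in either direction in each of these tissue lists. Whether the lower myeloid transcripts had a part in any of the other differences was not tested.

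The mix of transcript isoforms was read from the length column, the mean transcript length of a gene weighted by its isoforms. Among 11390 genes with more than 1 transcript and a mean of at least 1 CPM, 248 had longer transcripts in gemin2 mutants (2.18%) and 310 had shorter ones (2.72%), and in 234 of these 558 the length changed by over 10% (limma on log2 length). The length and the count changed together in only some of them, as 167 (29.9%) were also called by count, compared with 12.5% of the genes tested for length. The clearest shift without a change in count was in stab2, a scavenger receptor of the endothelium, whose mean length was 1750, 1584 and 1286 bases in gemin2 mutants and 7803 to 8055 bases in the others (log2 ratio -2.39 ± 0.07, adjusted p = 7.58e-07), while its counts did not pass (-0.26 ± 0.19, adjusted p = 0.43).

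Other genes among the 8 with the smallest p shifted by less. The helicase gene dhx40 went from 3088 to 3252 bases in the other mutants to 5193, 4727 and 5082 bases in gemin2 mutants (0.65 ± 0.03) and was higher by count (20.1 CPM against 7.09 CPM, adjusted p = 5.93e-06). The F-box gene fbxo44.9 was shorter, with 701, 701 and 684 bases against 1036 to 1048 bases (-0.59 ± 0.01), and higher by count (1.05 ± 0.11). Tight junction gene cldn11 was at 2843 bases in all 3 gemin2 libraries against 1916 to 2443 bases (0.47 ± 0.02), keratin gene krt5 at 2397 against 2071 to 2167 bases (0.18 ± 0.01), and zgc:162193 at 4246 to 4292 against 3412 to 3591 bases (0.30 ± 0.01). The ubiquitin ligase gene rnf126 (-0.10) and the pyruvate dehydrogenase kinase gene pdk2 (-0.13) were slightly shorter. In none of these 8 did a gemin2 library overlap the others. The column does not say which exons differ, and without gemin2 replicate 1 there were 137 longer and 188 shorter genes, without replicate 2 there were 139 and 169.

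Finally, the genes around gemin2 were examined, since a mutation is inherited together with its neighbourhood. Of the 100 genes tested among the 50 nearest on each side, 13 were called (13%, Wilson 95% interval 7.76 to 21%), compared with 12.1% of the 15779 genes placed in gene order. The share was 16% for the 25 nearest on each side and 15% for the 100 nearest. Of the 13, 12 were higher (12%, Wilson 95% interval 7 to 19.8%) and 1 lower (1%, 0.177 to 5.45%), compared with 5.54% and 6.57% of all placed genes. The intervals take neighbouring genes as independent, which genes inherited together may not be. They are therefore no test of the neighbourhood. With 25 genes on each side 7 were higher (14%, 6.95 to 26.2%) and 1 lower (2%, 0.354 to 10.5%). With 100 there were 19 higher (9.5%, 6.17 to 14.4%) and 11 lower (5.5%, 3.1 to 9.58%). The windows are nested around the same gene, so their shares are not separate evidence. Whether linkage to the mutation had a part in the directions of these calls was not tested. The lower gene, ero1a, for an oxidase of disulfide bond formation, was at 0.771, 0.883 and 0.974 CPM against 3.02 to 4.77 CPM (-2.05 ± 0.19, adjusted p = 1.03e-05). The largest rise was in pimr168 (0.357 to 1.2 CPM against 0 to 0.403 CPM, 4.61 ± 0.51 as fitted, but 7.89-fold as a ratio of mean CPM), and the next were si:ch211-266g18.6 (1.08 ± 0.15), prorp (0.81 ± 0.19), hmbox1 (0.81 ± 0.20) and the fructokinase gene khk (8.78 to 13 CPM against 5.2 to 7.06 CPM, 0.80 ± 0.13). The other 7, akap6, gpn1, sdsl, pln2, syne3, ston2 and setd3, were higher by 0.28 to 0.72. The setd3 call was lost under 17 of 22 alternatives. In their own contrasts, 0 of 100 neighbours of gemin4 (1.3% of all placed genes), 1 of 52 of gemin6 (1.64%) and 0 of 78 of gemin7 (1.04%) were called by edgeR. At an unadjusted p below 0.05 there were 8, 8 and 11, beside 2986, 4040 and 3703 of all 23739 genes tested. These neighbour shares were no larger than those of all genes. DESeq2 called 0, 2 and 3 of the neighbours.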

How the data were processed

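RNA-seq of 12 homozygous mutant samples was used (3 for each of 4 mutants), with 3 wild-type libraries for background levels. According to the study's methods and the submitters' processing notes, the authors trimmed reads (Trimmomatic 0.36), mapped them to GRCz10 (danRer10; Ensembl annotation without pseudogenes) with STAR and estimated expression with RSEM. The STAR release differs between these sources, and the role of HISAT2, which the notes also list, is not given in the sources used here. The deposited values used were expected counts per gene and the isoform-weighted transcript length. Whether mapping used strand is not given in the sources used here, so overlapping and antisense genes are uncertain, as are near-identical copies, among which RSEM divides reads. Many duplicated zebrafish genes carry 1 shared symbol and are told apart here by identifier. Of 34707 identifiers, 26982 were named from a gene table, 414 from the study's supplement and 7311 stayed unnamed.

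Expected counts were rounded to whole numbers (10.2% of values were not whole) and fitted in edgeR 4.0.16 (R 4.3.3; filterByExpr, TMM, quasi-likelihood test) over the 12 libraries with 4 groups and no covariates. P-values were adjusted by the Benjamini-Hochberg method over all 23739 genes, a gene was called at an adjusted p below 0.05, and the SE was derived from the log2 fold change and its F statistic. Log2 length was tested with limma 3.58.1 (genes of identical length in all libraries left out). DESeq2 1.42.0 and, for named genes, the log2 ratio of mean CPM plus 0.5 were among the alternatives. The counting interval of a ratio is exact and, like the Wilson interval, covers counting error only. Neighbouring genes came from RefSeq gene order on a newer assembly (GRCz12tu), used for names and order only. On simulated counts for 23739 genes, 50 genes were changed at each size, all of them with a mean count of at least 50. The comparison recovered 40% at 1.5-fold, 82% at 2-fold and 100% at 4-fold and 8-fold, and called 12 unchanged genes.

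The members and all 39 gene lists were chosen with earlier results of these data known. Genes were named by rule: the SMN complex genes; the 12 largest rises and falls among genes called, called against each mutant, not overlapping, at a mean CPM of at least 2 on the higher side and with a gene symbol, plus 2 clone-named genes each way; called list members and up to 4 of smallest p; the 8 smallest p for length; and called neighbours of gemin2. Some genes that this rule names are not reported here. Lists are described by counts and medians, with no test of the list. Of the list members searched for, 64 had no match. The 15 small RNA samples and the other RNA-seq libraries of the series were left out, except that an alternative fitted all 33 RNA-seq libraries.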

Additional observations from a re-analysis of the deposited data

How the results depend on the processing

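Of the called genes named or listed here, 0 changed direction under any alternative. DESeq2 gave 1772 higher and 2058 lower genes, RLE scaling 1511 and 1728, no filter 1533 and 1737, and all 33 libraries in a single fit 2010 and 2000. Testing against a fold change of 1.5 instead of none left 338 and 526. Leaving out each library in turn gave 923 to 1575 higher and 1051 to 1770 lower genes, the fewest without gemin2 replicate 2 (887 and 1015 of them shared with the full set), and leaving out a whole mutant gave 1129 to 1495 and 1463 to 1795. Among the other mutants, DESeq2 gave 427 and 310 calls for gemin4, 471 and 550 for gemin6, and 495 and 405 for gemin7, more than edgeR. The cause was not tested. Length calls ranged from 137 to 245 longer and 169 to 276 shorter over single libraries left out, and were 207 and 266 at a mean of 5 CPM and 226 and 290 with effective length. Of 188 called genes named or listed, 66 kept the call under every alternative with a test, and 13 lost it under at least 11 of 22 alternatives (setd3, erbb3b, snrpa1, clk2, snapc4, prpf3, hspe1, apoa4b.1, gtse1, cdca8, tnfb, sesn1 and pmela). As a log2 ratio of mean CPM plus 0.5 the change of 31 of 260 such genes, called or not, moved beyond the spread between replicates.

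Same-numbered libraries deviated together in some pairs of mutants and not in others (8 of 18 pairs correlated above 0.1, range -0.377 to 0.239, and 5 of 12 libraries correlated best with their own number), so the numbers are not taken as pairs across the 4 mutants. All 3 pairs of gemin2 with gemin4 (0.121 to 0.225) and with gemin7 (0.139 to 0.239) were above 0.1, against 1 of 3 with gemin6. For those 2 contrasts the block gave 740 higher and 1120 lower genes against gemin4 (823 and 1203 without it) and 829 and 1239 against gemin7 (868 and 1269 without it). Against the mean of the others with the replicate number as a block, 1400 genes were higher and 1739 lower, 10 of the named or listed calls were lost (snapc4, prpf3, mat2a ENSDARG00000040334, sesn1, fgg, hlfa, erbb3b, pmela, setd3 and apoa4b.1), and 208 had longer and 232 shorter transcripts.

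With 3 libraries a group, 40% of simulated 1.5-fold changes were recovered, so small differences can be missed. Recovery in genes of lower count than those changed was not simulated. The simulation changed 50 genes at each size, far fewer than the 3223 called in the data. Recovery in these data may therefore differ. Fitted fold changes of genes with few counts in 1 group depend on the fit. Bounds or counting intervals are given for named genes with at most 3 counts in a group, and a ratio of mean CPM where it differed from the fitted fold by over 1.5 times.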
